A study of Mus musculus with 2 samples.

Results

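The region examined was the 5 Mb of mouse chromosome 2 from chr2:15000001-20000000 (GRCm38) that holds *Bmi1*. Its members were the ATAC-seq peaks with their centre in this window, 246 of 178027 peaks on chromosomes 1 to 19, X and Y. The list labelled WT held 88 of them, and the list labelled *Bmi1*-/- held 158. The window was chosen by the peak numbers themselves, because it held a large excess of peaks labelled *Bmi1*-/-, so the comparison of the lists here is a description, and no test was made of it.

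The lists come from the organ of Corti, the sensory epithelium of the cochlea, of P2 mice. WT and *Bmi1*-/- littermates came from *Bmi1* tm1Brn mice (FVB.129P2-Bmi1tm1Brn/MvlJ) that had been backcrossed repeatedly to C57BL/6J. Cochleae of several mice of a genotype were combined into 1 library, so that there is no replicate of either genotype. The labels name no other allele and no treatment in either group. How much donor chromosome remained beside the mutant allele, and which bases of *Bmi1* the allele lacks, was not examined, and all of the window is on the chromosome that carries the allele. A change of the DNA beside the allele and an effect of the lost protein cannot be told apart in this window.

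The peak names inside each list carried the prefix of the other genotype in 100% of the peaks. Every direction given here therefore rests on the labels. The commonest local background, which is the mean read depth that the peak caller takes for a place without signal, was 6.32 reads for WT and 8.04 reads for *Bmi1*-/-. The lists therefore differed in depth in the same direction as in peak number. Of 8 hair cell markers, 6 had a promoter peak labelled WT and 7 a promoter peak labelled *Bmi1*-/-, and *Tmc1*, which encodes the hair cell transduction channel, had none in either list. Supporting cell markers had 7 and 6 of 8, neuronal markers 3 and 4 of 6, glial markers 1 and 2 of 4, mesenchymal markers 2 and 3 of 4, endothelial markers 3 and 3 of 4, and blood and macrophage markers 1 and 1 of 5. Of all 21938 coding genes, 53.0% had a promoter peak in both lists, 15.2% in the *Bmi1*-/- list only and 6.10% in the WT list only. More coding genes of any kind thus had a promoter peak in the *Bmi1*-/- list. The part of these cell types in the results was not tested. In such pooled tissue, fewer cells of a type and less open chromatin per cell cannot be told apart.

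Bmi1 (Pcgf4) is a subunit of Polycomb repressive complex 1, which ubiquitinates histone H2A and keeps developmental genes silent together with the H3K27 methylation set by Polycomb repressive complex 2. In stem and progenitor cells Bmi1 is known for repressing the *Cdkn2a* locus and so allowing division. In ATAC-seq the Tn5 transposase inserts adapters into open DNA, so that peaks mark active promoters, most of which are CpG-rich, and distal regulatory elements. The gene neighbourhood of *Bmi1* is *Commd3*, which encodes a COMM domain protein of endosomal sorting, on one side and *Spag6*, which encodes a protein of the ciliary axoneme, on the other.

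The sequences below are those that the results turn on, read from the GRCm38 genome on the plus strand. The first is the RefSeq promoter of *Bmi1*, from 250 bases before to 50 after the start (chr2:18676768-18677067). The next are the shared peak with the largest fall and the strongest shared peak, then the strongest unshared peaks that lie in a coding exon and an intron in the *Bmi1*-/- list, and the strongest unshared peak labelled WT. These 5 peaks are shown by the 201 bases centred on a summit, which for the shared peaks is that labelled WT. Capitals mark matches on either strand to the GC box GGGCGG, the binding site of Sp factors, to CCAAT, to the AP-1 motif TGANTCA and to the CRE motif TGACGTCA, and matches may run into each other.
*Bmi1* promoter, chr2:18676768-18677067: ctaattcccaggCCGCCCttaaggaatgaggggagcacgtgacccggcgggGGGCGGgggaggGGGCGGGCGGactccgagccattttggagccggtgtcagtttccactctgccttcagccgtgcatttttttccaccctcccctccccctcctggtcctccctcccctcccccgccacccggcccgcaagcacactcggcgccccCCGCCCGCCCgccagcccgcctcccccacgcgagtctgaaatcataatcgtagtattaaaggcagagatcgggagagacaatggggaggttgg
Upstream of *Spag6*, chr2:18690248-18690448: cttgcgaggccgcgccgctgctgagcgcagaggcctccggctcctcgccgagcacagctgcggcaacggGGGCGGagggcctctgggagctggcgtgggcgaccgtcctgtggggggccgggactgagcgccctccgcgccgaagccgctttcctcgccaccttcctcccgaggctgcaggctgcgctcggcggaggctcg
*Mllt10* strongest shared peak, chr2:18056739-18056939: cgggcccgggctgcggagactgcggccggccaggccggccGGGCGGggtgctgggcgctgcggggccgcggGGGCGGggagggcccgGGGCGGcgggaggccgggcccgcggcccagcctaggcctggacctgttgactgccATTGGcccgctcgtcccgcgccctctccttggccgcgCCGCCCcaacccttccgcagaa
*Skida1* coding exon, *Bmi1*-/- only, chr2:18046962-18047162: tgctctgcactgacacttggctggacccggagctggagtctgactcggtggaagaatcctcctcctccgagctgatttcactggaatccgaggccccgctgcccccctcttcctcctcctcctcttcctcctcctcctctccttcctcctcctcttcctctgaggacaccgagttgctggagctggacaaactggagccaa
*Plxdc2* intron, *Bmi1*-/- only, chr2:16453225-16453425: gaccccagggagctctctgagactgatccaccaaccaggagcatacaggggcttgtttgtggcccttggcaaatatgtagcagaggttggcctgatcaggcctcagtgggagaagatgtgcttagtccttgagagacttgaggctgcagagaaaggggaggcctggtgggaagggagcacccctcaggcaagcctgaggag
*Pip4k2a* intron, WT only, chr2:18980224-18980424: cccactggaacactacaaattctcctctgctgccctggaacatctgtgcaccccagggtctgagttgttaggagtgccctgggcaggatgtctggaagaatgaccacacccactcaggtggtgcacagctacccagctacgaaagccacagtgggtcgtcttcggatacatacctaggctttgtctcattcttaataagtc

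The *Bmi1* promoter held 6 GC boxes and 23 CpG, with a GC content of 66.3%. The GC box was found in 35.7% of 32851 RefSeq promoters of the same length, CCAAT in 37.4%, AP-1 in 7.81% and CRE in 1.79%. The *Mllt10* and *Spag6* sequences, with a GC content of 82.1% and 76.1%, held 4 GC boxes and 1. The 3 unshared peaks shown held none of these motifs, and their GC content was 60.2%, 57.7% and 52.7%. The presence of these letters does not show that a factor was bound, and their absence shows only that they are not in these bases.

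The window held 1.80 peaks labelled *Bmi1*-/- for each peak labelled WT (88 and 158 peaks, 95% interval 1.38 to 2.36). The rest of chromosome 2 had 6001 and 7861 peaks, a ratio of 1.31 (1.27 to 1.36), and the genome had a ratio of 1.29. At the genome's ratio, 88 WT peaks would correspond to 114 peaks labelled *Bmi1*-/-, so 44.1 lay above it. All intervals here are exact, cover counting error only, and leave out the variation between mice and libraries. The list labelled WT was sparse in this window, with 17.6 peaks per Mb against 28.5 in the genome, and the list labelled *Bmi1*-/- held 31.6 against 36.9. The window was thus below the genome in both lists, and further below it in the WT list.

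Among the 37 windows of 5 Mb on chromosome 2 it had the highest ratio, but the margin was small. The window chr2:110000001-115000000 had 79 and 141 peaks and a ratio of 1.78. The other 36 windows had a median ratio of 1.35 and a range of 1.09 to 1.78, and the intervals of 34 of them overlapped that of the *Bmi1* window. By the difference in peak number, 70, it ranked 8. The rank of the window was 8 among peaks with a −log10 q of 2 or more and 24 of 29 windows at 5 or more. With the grid moved by 2.5 Mb, the windows over its first and last part ranked 3 and 12 of 36. The 13 other windows with 71 to 131 WT peaks had a median ratio of 1.48. Of 436 windows of the genome with at least 50 WT peaks, the *Bmi1* window ranked 12 by ratio, and of 163 such windows with a similar number of WT peaks it ranked 7, where their median was 1.43. The highest ratio of the genome, 2.43, was that of chr9:80000001-85000000, with 60 and 146 peaks.

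**Figure D1:**
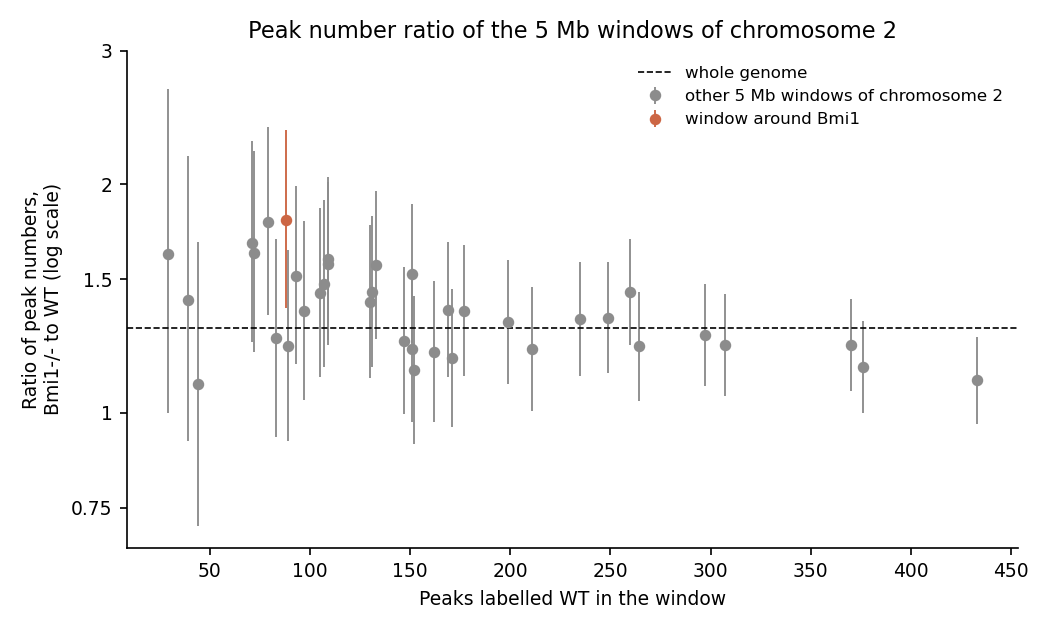
Ratio of peak numbers (Bmi1-/- to WT, log axis) against the number of WT peaks for the 37 windows of 5 Mb on chromosome 2; points are windows, bars are exact 95% intervals and the dashed line is the genome's ratio of 1.29. The window around Bmi1 is the highest point at 1.80, close to the next at 1.78, and intervals are wider where there are fewer WT peaks.

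The excess was spread over the window. By megabase from its start the lists labelled WT and *Bmi1*-/- held 9 and 15, 7 and 19, 15 and 32, 31 and 56, and 26 and 36 peaks. The ratio was highest in the second megabase, 2.71 (1.09 to 7.64), which holds *Plxdc2*, and lowest in the last, 1.38 (0.813 to 2.39). The megabase with *Bmi1* had 1.81 (1.15 to 2.90). Just before the window, chr2:14000001-15000000 had 28 peaks in each list. The megabases before that, chr2:13000001-14000000 and chr2:12000001-13000000, had 12 and 37, and 21 and 36. Just after the window, chr2:20000001-21000000 had 27 and 41. The limits of the window were therefore not limits of the excess. The outermost members just inside the limits were centred at 15007390 and 19944841 in the WT list and at 15007542 and 19978072 in the *Bmi1*-/- list. The nearest peaks outside were centred at 14985894 and 20101924, and at 14985769 and 20102698.

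Of the 50 bins of 100 kb in the window, 34 had more peaks labelled *Bmi1*-/-, 5 had more labelled WT, 8 had equal numbers and 3 had none. In the genome 59.6% of bins with a peak had more peaks labelled *Bmi1*-/- and 25.9% more labelled WT, against 72.3% and 10.6% of the 47 bins here. The 5 bins with the largest excess held 26 of the 70 additional peaks. The first was chr2:18600001-18700000, with *Commd3*, *Bmi1* and the start of *Spag6*, which held 7 WT and 15 *Bmi1*-/- peaks. The next were chr2:18000001-18100000, with *Skida1* and the start of *Mllt10* (6 and 11), and chr2:18800001-18900000 in *Pip4k2a* (3 and 8). The other two, each with 1 and 5 peaks, were chr2:17500001-17600000 in *Nebl* and chr2:19000001-19100000, which holds no gene. The largest excess of the WT list, 9 against 5 peaks, was in the bin chr2:18900001-19000000 at the start of *Pip4k2a*, beside the third of these bins.

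**Figure D2:**
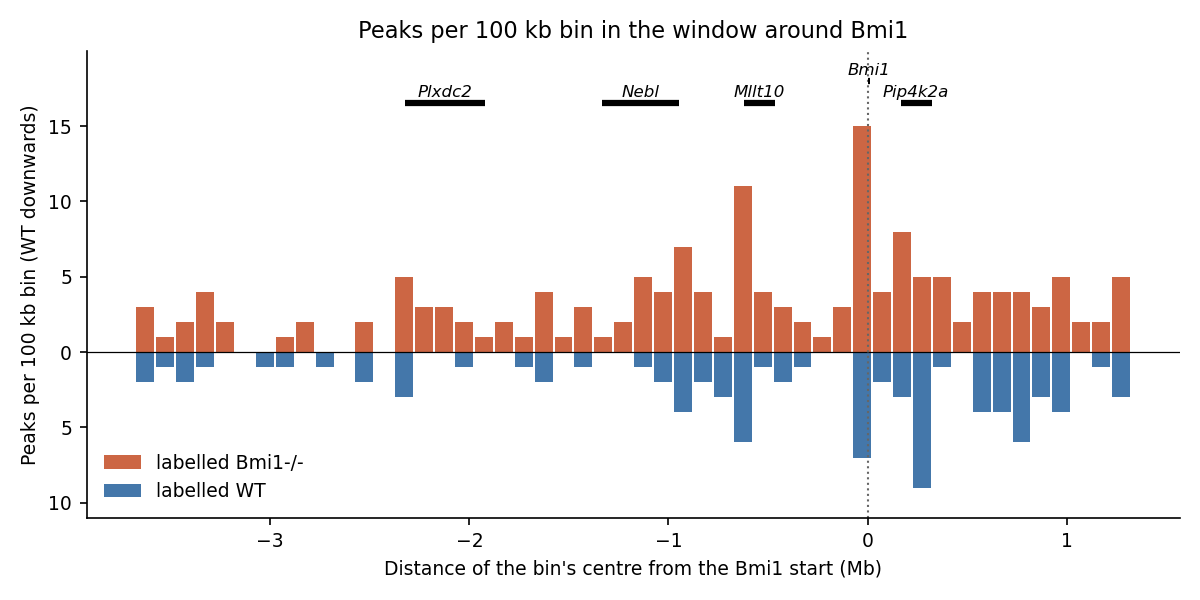
Peaks per 100 kb bin, upwards for the list labelled Bmi1-/- and downwards for the list labelled WT, against the distance of the bin's centre from the Bmi1 start in Mb; black bars are gene bodies. The bin with Bmi1 holds 15 peaks upwards and 7 downwards, and 34 of 50 bins are taller upwards.

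Assigned to their nearest gene, the peaks fell on 43 genes. More peaks labelled *Bmi1*-/- were assigned to 30 of them (69.8%, against 53.0% of 32151 genes with a peak in the genome), and more labelled WT to 6 (against 28.0%). Of the 43 genes, 33 had peaks of both lists, 9 had *Bmi1*-/- peaks only and 1 had WT peaks only. In the genome these numbers were 21492, 6887 and 3772 of 32151 genes. Genes were counted however few peaks they had, so that much of this count rests on differences of 1 or 2 peaks.

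*Nebl* and *Plxdc2* stood at the head of the list. *Nebl*, which encodes nebulette, an actin-binding protein of the cardiac Z-disc, had 6 WT peaks and 20 *Bmi1*-/- peaks, of which 3 and 17 had no overlap. *Plxdc2*, which encodes a transmembrane protein with a plexin domain, had 4 and 16, of which 1 and 13 had no overlap. In the genome 75.2% of WT peaks and 81.5% of *Bmi1*-/- peaks had no overlap. The unshared *Bmi1*-/- peaks of both genes were thus near the genome's share. Both genes are long, 387556 and 399536 bases, and most of their *Bmi1*-/- peaks, 12 and 9, lay in introns away from promoters. Together they made up 26 of the 70 additional peaks. Without them, the genes with the largest excess, the window had 78 and 122 peaks, a ratio of 1.56, which their choice makes lower than the ratio of the whole window.

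The peaks at both genes were of ordinary height. At *Nebl* the pileup, the number of reads stacked at the summit, was 15 to 18 in the WT list and 16 to 26 in the *Bmi1*-/- list, with medians of 17 and 21. Ranked by −log10 p among the peaks of their own list, the 20 *Bmi1*-/- peaks ran from percentile 1.3 to percentile 88.6, with a median of 57.8. At *Plxdc2* the *Bmi1*-/- pileups ran from 18 to 31 with a median of 21, and the 4 WT pileups from 17 to 24. A −log10 q of 2 was reached by 0 and 7 peaks at *Nebl* and by 2 and 4 at *Plxdc2*. The strongest was the unshared *Bmi1*-/- peak chr2:16356181-16357079 at the start of *Plxdc2*, with its summit in a UTR (pileup 31, −log10 q 5.36, 96.1st percentile). The unshared intron peak of *Plxdc2* shown above (chr2:16453157-16453458) had a pileup of 27 and a −log10 q of 4.02, and 65.2% of the bases around its summit were repeat-masked.

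**Figure D3:**
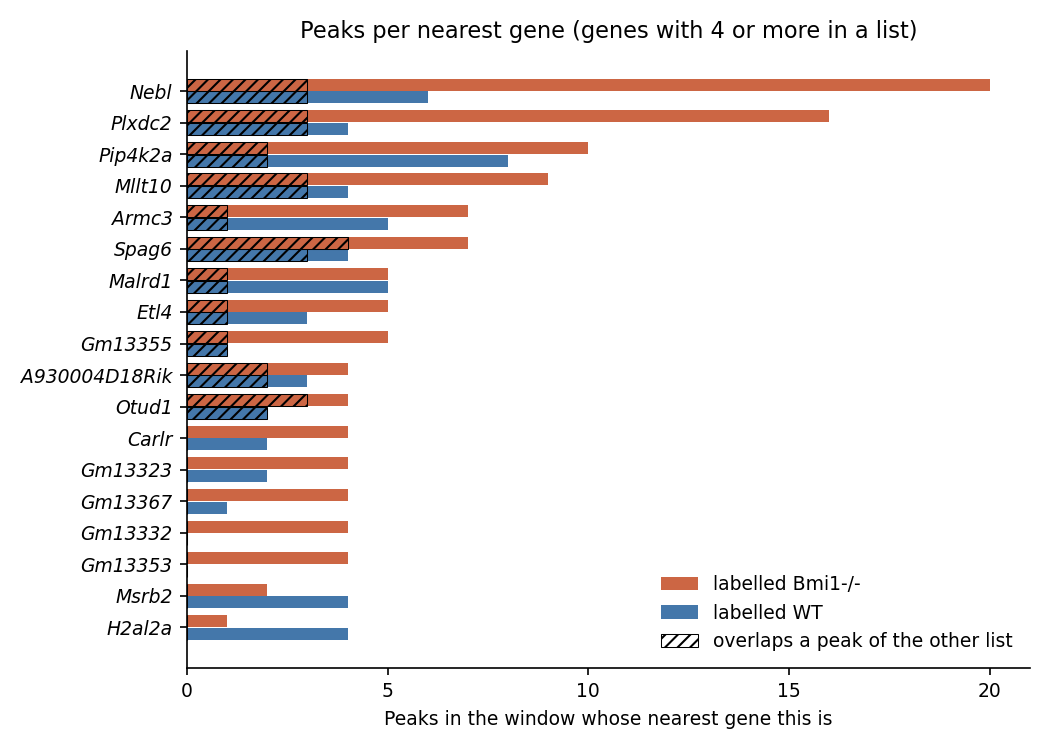
Peaks per nearest gene in each list for the genes with at least 4 peaks in a list; the hatched part of a bar is the number that overlap a peak of the other list. Nebl (6 and 20) and Plxdc2 (4 and 16) differ most, and their hatched parts are 3 peaks in each list.

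Other genes differed less. *Pip4k2a*, which encodes a phosphatidylinositol phosphate kinase, had 8 and 10 peaks, and *Mllt10*, which encodes a cofactor of the H3K79 methyltransferase Dot1l, had 4 and 9. *Armc3*, an armadillo repeat gene, had 5 and 7, *Spag6* 4 and 7, *Etl4* 3 and 5, and *Malrd1* 5 in each list although it is 729077 bases long. *Etl4*, 900934 bases long, runs past the end of the window, and its whole body held 20 and 29 peaks. Peaks in the opposite direction were few. *Msrb2*, which encodes a mitochondrial methionine sulfoxide reductase, was the nearest gene of 4 and 2 peaks, and the histone gene *H2al2a* of 4 and 1. The peaks assigned to *H2al2a* were all intergenic, 15947 to 96664 bp from the gene.

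At *Bmi1* the lists shared 1 peak, over the start of the gene. In the WT list it covered chr2:18677082-18677406 with a pileup of 17 (−log10 q 1.15, 40.1st percentile). In the *Bmi1*-/- list it covered chr2:18677013-18677568 with a pileup of 29 (−log10 q 3.60, 92.0th percentile). Relative to each library's commonest background the *Bmi1*-/- pileup was higher by 0.42 on the log2 scale. The local background of that peak was raised, 9.58 reads against 6.32 in the WT list, and relative to the local backgrounds the difference was 0.17. The counting interval of the former, -0.49 to 1.38, includes 0 and the latter value. The *Bmi1*-/- list held 3 further peaks at or within the gene: chr2:18676267-18676865 between *Commd3* and *Bmi1*, with its centre 452 bp from the *Bmi1* start (pileup 28), and chr2:18677766-18678031 and chr2:18681150-18681366 within the gene (pileups 26 and 19), both with the summit in an intron. Each had no overlap in the WT list. The WT list held 1 peak without an overlap near *Bmi1*, chr2:18689349-18689548, 2819 bp beyond the end of the gene, with a pileup of 15. The first of the 3 lies over the 5′ part of the promoter sequence shown above, with its first GC boxes, and the shared peak lies over the 3′ end of it in the *Bmi1*-/- list. Since the bases that the allele lacks were not examined, peaks at *Bmi1* in the *Bmi1*-/- list do not check the genotype.

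The neighbours of *Bmi1* did not all go the same way. The start of *Commd3* had a peak in both lists with pileups of 25 and 28, a log2 difference of -0.18 relative to background, so that it was no higher in the *Bmi1*-/- list. Between *Bmi1* and *Spag6*, the CpG-rich intergenic peak chr2:18690060-18690666, which lies 3669 bp before *Spag6*, had the largest fall of the window. Its pileup was 31 in the WT list (−log10 q 7.96, 99.5th percentile) and 22 in the *Bmi1*-/- list (−log10 q 1.97, 69.3rd percentile), a log2 difference of -0.84. The 2 shared peaks at the *Spag6* starts had log2 differences of -0.12 and 0.02. At *Dnajc1*, which encodes a co-chaperone of the endoplasmic reticulum, the peak over the start had the largest rise, from a pileup of 18 to 38 (56.8th and 99.0th percentile), a log2 difference of 0.73. The counting interval was -1.7 to -0.00719 for the fall upstream of *Spag6* and -0.11 to 1.63 for the rise at *Dnajc1*. These pairs were picked as the extremes of 33, which the intervals do not allow for. Reads at a summit of this height vary by counting alone by several reads, and with 1 library per genotype none of these differences could be tested.

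Over all overlapping pairs of the window the heights did not move with the peak number. The 35 shared peaks of each list formed 33 distinct pairs, and the median log2 difference of the relative pileup was -0.04 (quartiles -0.18 and 0.18), with the *Bmi1*-/- peak higher in 15 of 33. In the genome the median of 18234 pairs was -0.03 and the *Bmi1*-/- peak was higher in 47%. The strongest pair was that at *Mllt10* (chr2:18056559-18057095 in the WT list), with pileups of 37 and 43 and −log10 q of 12.1 and 12.8, which lay above the 99th percentile in both lists. A second pair at *Mllt10* had pileups of 29 and 47, and that at *Otud1*, which encodes a deubiquitinase, had 30 and 37.

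**Figure D4:**
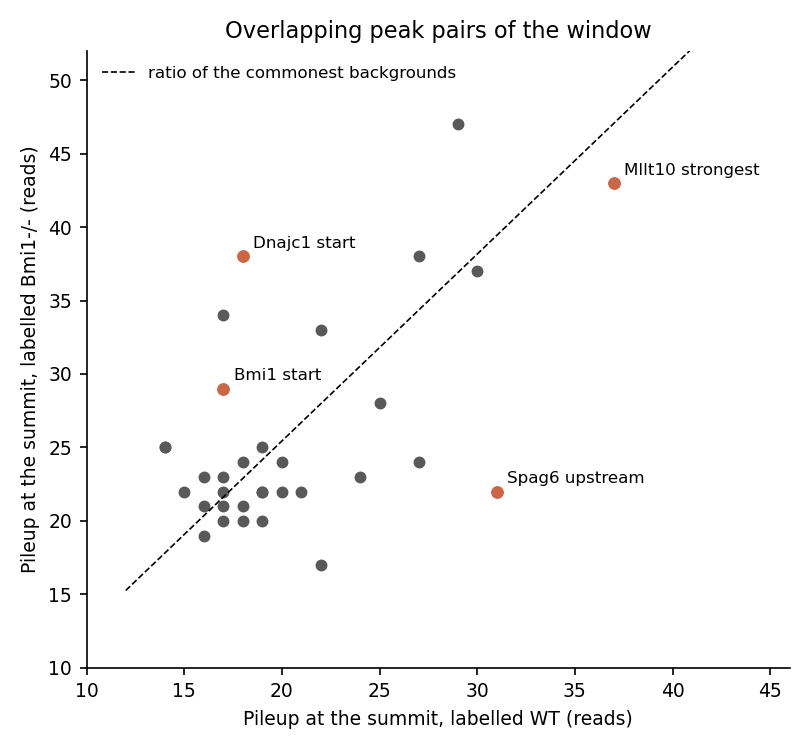
Pileup at the summit in reads for the 33 overlapping pairs of the window, labelled WT on the x axis and labelled Bmi1-/- on the y axis; the dashed line is the ratio of the commonest backgrounds, 8.04 to 6.32. Points lie on both sides of the line, with Dnajc1 (18 and 38) farthest above it and the peak upstream of Spag6 (31 and 22) farthest below.

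The additional 70 peaks were peaks without an overlap, since the shared peaks were equal in number. In the WT list 53 of 88 peaks (60.2%, 49.2 to 70.5) had no overlap of at least 1 bp in the other list, against 75.2% in the genome and 75.9% on the rest of chromosome 2, and this was the lowest of the 37 windows of the chromosome, where the next lowest was 64.5%. In the *Bmi1*-/- list 123 of 158 (77.8%, 70.6 to 84.1) had none, against 81.5% in the genome and 82.4% on the rest of the chromosome. Unshared peaks had a ratio of 2.32 (1.67 to 3.27) in the window and 1.40 in the genome. Of the 123, 15 lay within 1 kb of a WT peak and 75 more than 10 kb from one, with a median distance of 16.4 kb. These distances are not given for the genome, and WT peaks were sparse in the window (17.6 per Mb against 28.5 in the genome). Unshared peaks were weak in both lists: they had median pileups of 17 (WT) and 20 (*Bmi1*-/-), and the lowest pileup reported at the commonest background was 13 and 15. The shared peaks of the window had medians of 19 and 23. In the genome the medians of unshared peaks were 18 and 21.

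The low share of unshared WT peaks lay among promoter peaks, where a promoter was 3 kb to each side of a start site. Only 5 of 28 WT promoter peaks in the window had no overlap (17.9%, 6.06 to 36.9), against 56.6% on the rest of the chromosome. For the *Bmi1*-/- list it was 27 of 50 (54.0%, 39.3 to 68.2) against 68.2%. Away from promoters, 48 of 60 WT peaks (80%) and 96 of 108 *Bmi1*-/- peaks (88.9%) had none, close to 85.2% and 88.9% on the rest of the chromosome. The peak number ratio differed little between the 3 large classes, with 28 and 50 promoter peaks (1.79), 28 and 50 intron peaks (1.79), and 30 and 56 intergenic peaks (1.87). The few exon peaks numbered 2 in each list, a ratio of 1 (0.0725 to 13.8).

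**Figure D5:**
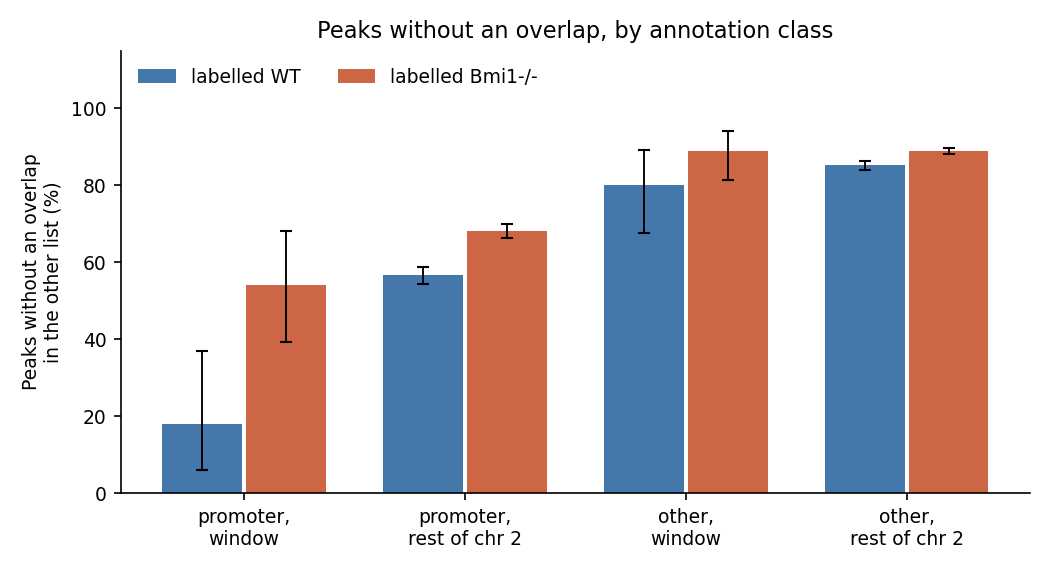
Percent of peaks without an overlap in the other list, for promoter peaks and other peaks of the window and of the rest of chromosome 2; bars are shares and error bars exact 95% intervals. The bar for WT promoter peaks of the window stands at 17.9%, below the 56.6% of the rest of the chromosome, while the bars for other peaks are close to each other.

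Counted by gene, promoters with a peak in the *Bmi1*-/- list only were about as frequent as in the genome. Of the 21 protein-coding genes in the window, 15 had a promoter peak in both lists, 3 in the *Bmi1*-/- list only (14.3%, against 15.2% of 21938 coding genes in the genome) and 0 in the WT list only (against 6.10%). *Malrd1*, *H2al2a* and *Armc3* had none. The 3 genes were *Skida1*, *Msrb2* and *Ptf1a*. *Ptf1a* encodes a bHLH factor of pancreatic and inhibitory neuron development, and its peak had a pileup of 23 and a −log10 q of 1.81. The *Msrb2* peak had a pileup of 21 and a −log10 q of 1.65. *Skida1*, a gene with a SKI/DACH domain, had the strongest unshared *Bmi1*-/- peak of the window, chr2:18046581-18047228, with a pileup of 30 and a −log10 q of 5.49 (96.4th percentile). Its summit lay in the coding exon shown above, and the centre of the peak was 1545 bp from the nearest annotated start site.

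The strongest unshared peaks of the WT list reached similar heights. The intron peak of *Pip4k2a* shown above, chr2:18980187-18980489, had a pileup of 26 and a −log10 q of 4.85 (98.2nd percentile). An intron peak of *Armc3*, chr2:19255089-19255525, had 23 and 3.31, and the intergenic peak chr2:15232211-15232455, nearest to the pseudogene *Gm13313*, had 22 and 2.86. In the *Bmi1*-/- list the peaks beside the pseudogene *Gm13355* (chr2:18641118-18641364) and before *4921504E06Rik* (chr2:19554032-19554458) both had a pileup of 26 and a −log10 q of 3.56. The background at these 5 summits was at the commonest value of its list.

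The strength of the peaks changed the comparison. Above a −log10 q of 1.3, 42 WT and 107 *Bmi1*-/- peaks were left, a ratio of 2.55 (1.77 to 3.73) against 1.55 in the genome. At 2 or more there were 19 and 38, a ratio of 2 (1.12 to 3.67) against 1.58, and at 5 or more there were 4 and 8, a ratio of 2 (0.536 to 9.08) against 3.36. By band, peaks under 1.3 numbered 46 and 51, a ratio of 1.11 (0.730 to 1.69), and in the genome 36956 and 37303. Between 1.3 and 2 there were 23 and 69, a ratio of 3 (1.85 to 5.04) against 1.54, and between 2 and 5 there were 15 and 30, a ratio of 2 (1.04 to 4) against 1.44. Most of the 70 additional peaks were therefore in the band from 1.3 to 2, and few among the weakest. At the commonest background this band takes WT pileups of 18 and 19 but *Bmi1*-/- pileups of 20 to 22. The same −log10 q is thus not the same step of reads in the lists, which limits the comparison by band. When the strongest 77596 peaks were taken from the *Bmi1*-/- list to match the WT list, 129 remained in the window, a ratio of 1.47 (1.11 to 1.94) against 1 in the genome.

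Raised local backgrounds were less frequent here than in the genome in both lists. The local background exceeded the commonest value at 25% of WT and 19.6% of *Bmi1*-/- peaks, against 51.6% and 45.6% in the genome, and its highest value was 7.30 and 11.1 reads. In the 13 other windows of chromosome 2 with 71 to 131 WT peaks, the WT share ran from 13.9% to 46.1%. The *Bmi1*-/- share there ran from 8.33% to 42.2%, so that low shares were not particular to this window. The median percentile within the list was 40.1 for WT peaks and 53.1 for *Bmi1*-/- peaks, so that WT members were weaker than the average WT peak. Median widths were alike, 260.5 and 257.5 bp.

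The GC content under the summits was similar in both lists. Within 100 bp of the summit the median GC content was 53.0% (WT) and 52% (*Bmi1*-/-), against 52.7% in the genome for both. Summits in mostly repeat-masked sequence, with at least 50% of the bases masked, were 18.2% and 20.3%, against 11.6% and 12.6% in the genome, and away from promoters 26.7% and 29.6%, against 14.6% and 16.0%. The GC box was found at 20.5% (12.6 to 30.4) of WT members and 12.7% (7.91 to 18.9) of *Bmi1*-/- members, against 11.3% in the genome for both. It was found at 37.1% and 34.3% of shared peaks (WT and *Bmi1*-/-) and at 9.43% (3.13 to 20.7) and 6.50% (2.85 to 12.4) of unshared ones. In the genome it was found at 29.6% and 29.6% of shared peaks and at 5.31% and 7.20% of unshared ones. The median GC content was 64.7% and 60.7% for shared peaks and 49.3% and 49.8% for unshared ones. The genome's medians were 58.7% and 58.2% for shared peaks and 51.7% and 52.2% for unshared ones. Such a contrast was thus not particular to the window. Of the summits of unshared *Bmi1*-/- peaks 61 of 123 were intergenic and 51 in introns, and the genome's counts are not given here. CCAAT was found at 23.9% and 22.8% of all members, and AP-1 at 3.41% and 3.16%, against 21% and 21.1%, and 5.12% and 5.24%, in the genome.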

How the data were processed

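The data were 2 ATAC-seq peak lists of the P2 organ of Corti, 1 per genotype, grouped by GEO's genotype label. The submitters' processing notes name FastQC, BWA, MACS2, HOMER and mm10. The MACS2 version and options are not given in the sources used here. The deposited fold enrichment is a ratio of summit pileup to local background with 1 added to both, the −log10 p and −log10 q deposited are those of the peak caller, and the deposited score and the positions complete each line. The score was not used.

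Peaks off chromosomes 1 to 19, X and Y were dropped. The pileup and background were solved from fold and −log10 p under a Poisson model, and the pileup came out whole (within 0.01% of −log10 p) for 100% of peaks. Percentiles rank −log10 p within a list. Overlap needed 1 bp. Pairs were formed by the largest overlap and compared by pileup over the commonest background of the list. Genes came from GENCODE vM21, and a promoter reached 3 kb to each side of a start site. Sequences were read from the RefSeq GRCm38 genome and promoter table. Shares have exact binomial and ratios exact conditional 95% intervals, which cover counting error only. The lists hold no read totals, so depth is known only as the commonest background. No p-value is given, since each genotype has 1 library. The overlap, nearest gene, pileup and interval steps were tested on simulated data.

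The members, gene lists and alternatives were chosen with earlier results of these data known. Named were *Bmi1* and its neighbours, the genes of the 5 bins and genes with the most peaks, coding genes with a promoter peak in 1 list, and the strongest shared and unshared peaks. The pairs with the largest rise and fall were chosen after their values were seen. *Vim*, *Cubn*, *Cacnb2*, *Itga8* and *C1ql3*, also listed, lie outside the window. Tools were Python 3.11.15, numpy 2.4.6, pandas 2.3.3, scipy 1.17.1, pysam 0.24.0 and matplotlib 3.10.9. Alternatives were other −log10 q thresholds, equal list sizes, other overlaps, bins, grids and gene sets and, chosen after seeing the data, each megabase left out, promoters or other peaks alone, and the local background for pairs.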

Additional observations from a re-analysis of the deposited data

How the results depend on the processing

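Of 42 alternatives, 28 left the value within the limits set and 14 moved it. None brought the ratio of peak numbers below 1. With a −log10 q of at least 5, however, the ratio of 2 was below the genome's 3.36. Leaving out the bin of *Bmi1* and leaving out the bin of the largest difference both left 81 and 143 peaks. They removed the same bin, although they are counted as separate alternatives. The ratio of peak numbers was 2.55 with a −log10 q of at least 1.3. With a reciprocal overlap of 50%, the unshared share was 89.2% (*Bmi1*-/-) and 80.7% (WT), and from a −log10 q of 2 upwards it was 55.3% and 31.6%. Bins with more peaks labelled *Bmi1*-/- numbered 53 with bins of 50 kb, 15 with bins of 250 kb and 16 from a −log10 q of 2 upwards. Nearest genes with more such peaks numbered 16 when only protein-coding genes were used. Coding genes with a promoter peak labelled *Bmi1*-/- only numbered 6 with a −log10 q of at least 2. The genome's shares under these settings for overlaps, bins and genes are not given here. These counts and shares are therefore not read as particular to the window. The rank of the window by ratio on chromosome 2 was 8 with a −log10 q of at least 2, and 24 of 29 windows with at least 5. With the grid moved by 2.5 Mb, the windows over the first and the last part of the region ranked 3 and 12 of 36, with ratios of 1.87 and 1.49. The cause of these changes was not tested, beyond the fewer or narrower peaks and bins that the settings themselves make. With 1 library per genotype the spread between mice is unknown, and no replicate could be left out. No paired analysis was possible because each genotype has 1 library and the labels give no replicate numbers.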
